A study of Mus musculus with 24 samples.

Results

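The TRIM genes of the mouse were followed across chromatin accessibility profiles of bone marrow-derived macrophages from 2 inbred strains. Members were all protein-coding genes of the GENCODE M21 annotation whose symbol is Trim followed by a number, which gave 68 of 21951 genes. Accessibility was measured by ATAC-seq, an assay that tags open DNA with adapters carried by the Tn5 transposase. Macrophages were grown for 7 days from marrow of male mice at postnatal day 28, 4 of them C57BL6/J and 4 BTBR (BTBR T+ Itpr3tf/J), a strain used as a model of autism-like traits. From each animal, cells stayed in media, were given lipopolysaccharide (LPS, a component of Gram-negative bacteria) at 100 ng/ml for 24 hours (LPSx1), or were given the same dose for 4 hours, washed, rested for about 20 hours and given it again for 24 hours (LPSx2). The media cultures received the washes and no LPS. The C57BL6/J animals carry the numbers 1, 4, 6 and 7, the BTBR animals 2, 3, 5 and 8, and each of the 8 gave 3 of the 24 libraries.

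The values were numbers of peaks. Each library has a list of 201 bp peaks, and a peak counted for the gene with the nearest protein-coding transcription start site (TSS) if that lay within 100 kb. The lists of C57BL6/J animal 6 in media (299 peaks) and LPSx2 (1877 after merging) were too short and were left out, which left 7 media, 8 LPSx1 and 7 LPSx2 libraries. Lists of one lane were limited to their strongest 11349 to 22037 peaks so that they had equal length. A higher number at a gene thus means that it holds more of the strongest peaks, and says nothing of the total of open chromatin. Read depth per library is not given in the sources used here. Each library held 4 to 47 peaks in sum over 8 macrophage markers, Csf1r, Spi1 and Cd68 among them. Of these 8 genes 0 had a peak in every library, while 1 of 7 T and NK cell genes did. The B-cell genes Cd79a, Pax5 and Ebf1 had none, nor did Cd3e, Cd8a and Ncr1 of T and NK cells, Ly6g and Elane of neutrophils, Gata1, Hba-a1 and Hbb-bs of erythroid cells or Col1a1, Col1a2, Col3a1 and Pdgfra of stroma.

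TRIM proteins carry a RING finger, B-boxes and a coiled coil, and most act as E3 ubiquitin ligases. Many are interferon-induced and restrict viruses or tune signalling from nucleic acid and Toll-like receptors. Others serve unrelated ends: the TIF1 group acts on chromatin, members with NHL repeats bind RNA, and several bind microtubules or muscle sarcomeres. Interferon acts on many of its target genes through the interferon-stimulated response element (ISRE), which the interferon regulatory factors and the complex ISGF3 bind.

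Of the 68 members, 51 held at least 1 peak in a length-limited list and 34 reached the mean of 0.5 peaks per library needed for testing (50.0% of members, against 41.6% of all genes). The other 17 of those 51 stayed under it. No length-limited list held a peak at the remaining 17, of which 11 had at least 1 in a full list and 6 had none in any full list of the 22 libraries (Trim10, Trim15, Trim43b, Trim60, Trim61 and Trim75). In each library the members together held 32 to 77 peaks. The 34 tested members had a median of 1.09 peaks per library, as had all 9122 genes tested, and the highest mean was 3.82, at Trim8. A peak was present in every library at 15 members, and a promoter peak, within 1 kb of a TSS, was present in every library at 9. These 9 were Trim12c, Trim21, Trim26 and Trim30b of the antiviral members, Trim23 and Trim68 of the signalling ligases, Trim24, Trim32 and Trim45. The other members ranged down to no promoter peak in any library, and 42 had one in at least 1.

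**Figure D1:**
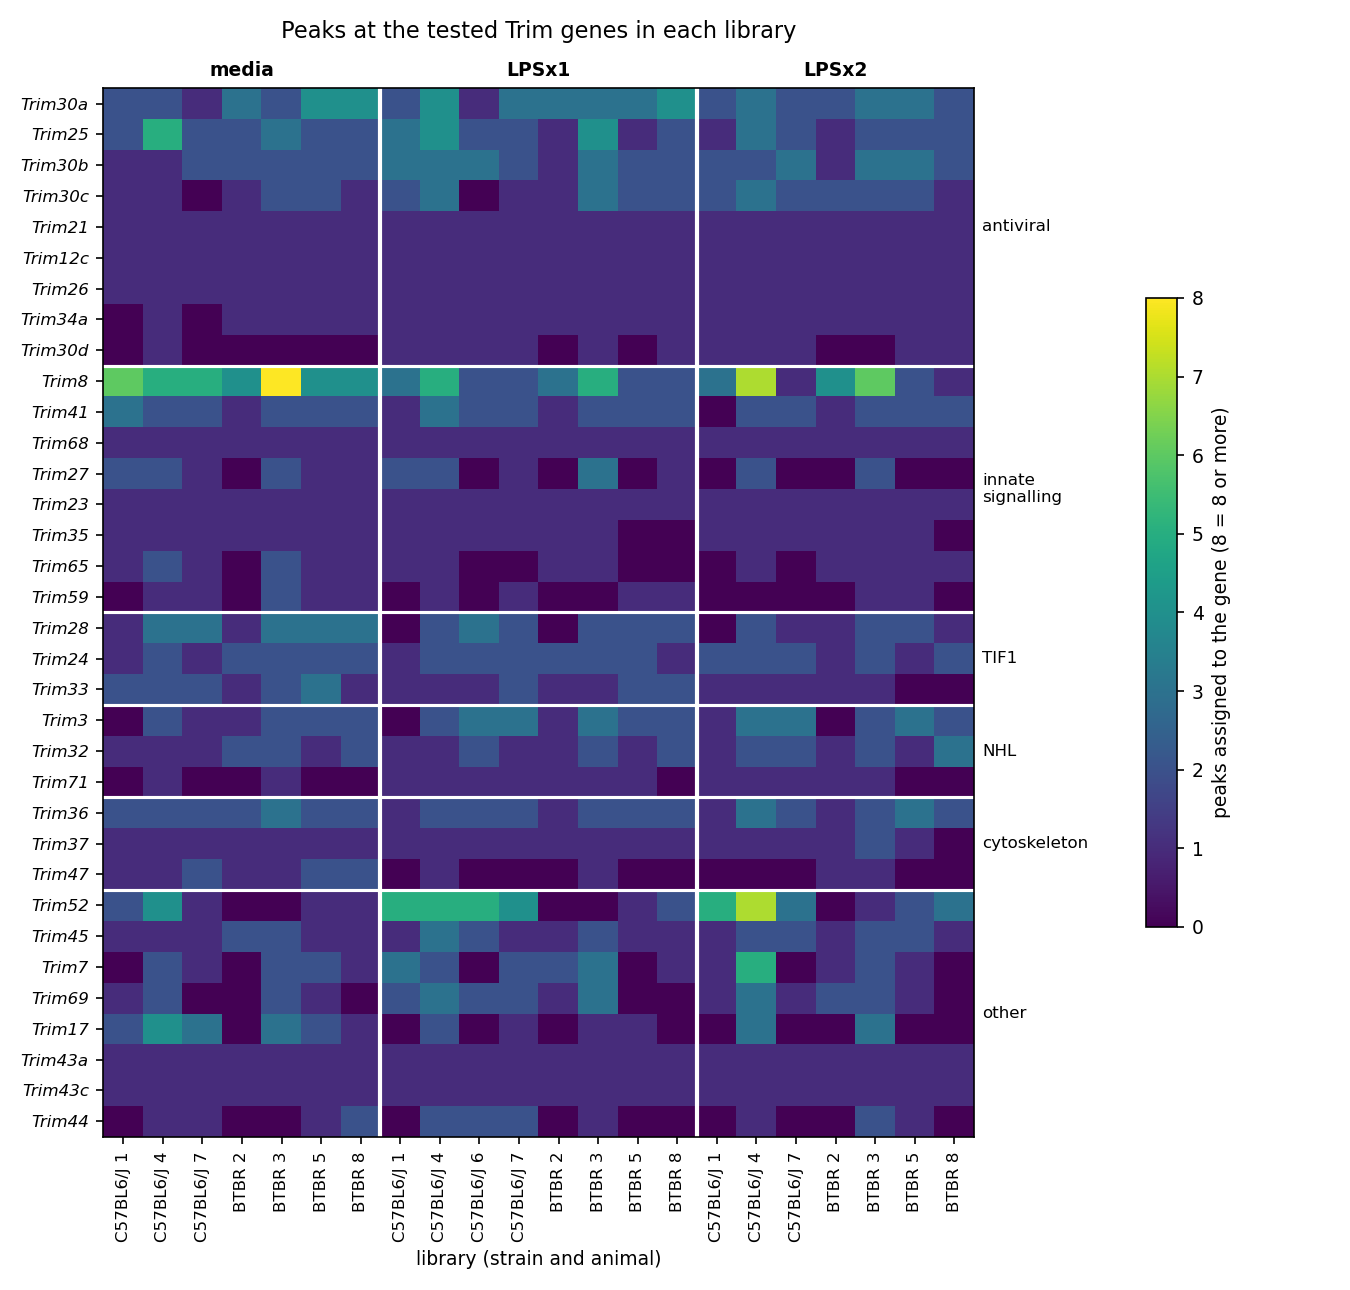
Number of peaks assigned to each of the 34 tested Trim genes (rows, grouped by role) in the 22 libraries (columns, by treatment, then strain and animal); colour gives the number from 0 to 8. Trim21, Trim12c and Trim26 hold 1 peak in every library, Trim8 holds the most, and the Trim52 row is bright in C57BL6/J and dark in BTBR.

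TRIM genes called for a change in peak number with LPS numbered 3 of 34 with each schedule. Trim21, Trim12c, Trim26 and others with exactly 1 peak in every library could not be called. Whether these counts differ from the shares over all genes was not tested. With LPSx1, 0 of 34 rose and 3 fell, Trim17, Trim28 and Trim47 (limma, adjusted over 9122 genes), where 5.40% of all genes changed, 3.19% upward and 2.21% downward. With LPSx2 against media the counts were again 0 and 3, where 6.11% changed, 3.29% upward and 2.82% downward. The same 3 genes fell in both, but both comparisons use the same media libraries. The median difference over the tested members was 0 in each, as over all genes. An unadjusted p under 0.05 (limma) was reached by 9 members with LPSx1 and 13 with LPSx2, and by 1984 and 2208 of all 9122 genes. Between LPSx2 and LPSx1, 0 members and 0 of all genes passed (0.00%, limma), with 0 members and 403 genes at an unadjusted p under 0.05. Markers of other cells were few in all libraries (T and NK cells 2 to 7 peaks over 7 genes, neutrophils 0 to 4 over 7, stroma 0 to 6 over 7). Among them Camp, of neutrophil granules, rose with both schedules by 0.61 and 0.63 (limma, adjusted p = 0.00787 and 0.00827). Bcl11b, a T-cell transcription factor, rose with LPSx2 by 1.5 (adjusted p = 0.0315, limma), and of the macrophage markers Lyz2, which encodes lysozyme, rose with LPSx1 by 1.53 (adjusted p = 0.0410, limma). The part of these in the Trim values was not tested. The 3 members with the largest differences between the LPS schedules were Trim33, Trim25 and Trim27, all lower in LPSx2 and none past the test.

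The antiviral and interferon-linked members numbered 16, of which 9 were tested and 0 rose or fell with either LPS schedule or between strains. Of all genes 5.40% changed with LPSx1, 6.11% with LPSx2 and 1.14% between strains. Whether 0 of 9 differs from these shares was not tested, and members with exactly 1 peak in every library could not be called. Several members of the group were open in every library. Trim21, a cytosolic receptor for antibody-coated viruses (chr7:102557921-102565486, mm10), held exactly 1 peak in all 22 libraries, at its promoter. Trim26, a ligase in antiviral signalling (chr17:36837134-36859398), and Trim12c, one of the mouse genes related to the retroviral restriction factor Trim5 (chr7:104338754-104353362), did the same. Trim5 itself, its neighbours Trim6 and Trim34b, and Trim38 had no peak in any length-limited list. Trim14, an adaptor of mitochondrial antiviral signalling, had 0 peaks in 18 of the 22 libraries, 2 in BTBR animal 3 in media and in LPSx1, and 1 in LPSx1 of C57BL6/J animal 4 and BTBR animal 5. Trim56, which acts in sensing of cytosolic nucleic acid, had 1 peak in each of 4 libraries, 2 of media and 1 of each LPS schedule, and none elsewhere. Neither reached the mean needed for a test.

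An ISRE, searched on either strand as GAAA, any 2 bases and GAAA again, lay in 7 of the 54 promoter regions of Trim genes (13.0%). Of the 13580 promoter regions of all genes 1.93% held one. The 7 belong to Trim12c, Trim14, Trim21, Trim26, Trim30a, Trim30d and Trim34a, all of the antiviral group. Trim12c, Trim30a, Trim30d and Trim34a are neighbours in 1 cluster of related genes on chromosome 7, so they are not independent cases. In the RefSeq promoter table for GRCm38.p6, which spans 250 bases before to 50 after each TSS, 53 members matched with 67 promoters. Of these, 10 promoters of 9 genes held an ISRE (14.9%), against 3.44% of all 32851 promoters, and the 9 genes included Trim5, whose promoter had no peak in any library. A match is a string of letters and not a bound site. The stretches below are those outside annotated exons of the peaks at the open promoters, on the strand of the gene, with the ISRE in capitals. For Trim21 and Trim34a, whose match lies in the first exon, only 10 bases on each side are given, and in Trim21 a second match overlaps the one shown.
Trim21, chr7:102565450-102565479: cctctgagagGAAACTGAAAgtgaaatttg
Trim34a, chr7:104244457-104244486: tggtttggagTTTCAGTTTCttttctctgc
Trim26, chr17:36836959-36837133: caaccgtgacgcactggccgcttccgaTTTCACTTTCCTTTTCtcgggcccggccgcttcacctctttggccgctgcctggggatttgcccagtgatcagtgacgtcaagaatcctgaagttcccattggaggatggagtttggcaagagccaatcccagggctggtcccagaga
Trim12c, chr7:104353363-104353560: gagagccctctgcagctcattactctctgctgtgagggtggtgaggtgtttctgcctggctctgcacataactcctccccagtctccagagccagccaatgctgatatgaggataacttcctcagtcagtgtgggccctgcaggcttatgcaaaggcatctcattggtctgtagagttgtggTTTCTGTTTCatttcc

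In these promoters the height of the peak was compared by rank, a measure added after the data had been seen. The deposited score orders the peaks of a list, and the strongest promoter peak of a gene was given its percentile in that list, where 100 is the strongest. The test covered 2548 genes with a promoter peak in every kept library, 9 of them Trim genes. The median gene moved by -1.39 points with LPSx1 and by -2.15 with LPSx2. The promoter of Trim21 stood at percentile 51.0, 92.1 and 36.3 in the media libraries of C57BL6/J animals 1, 4 and 7 and at 92.3, 81.2, 92.0 and 73.9 in those of BTBR animals 2, 3, 5 and 8. With LPSx1 it stood at 77.2 to 94.3 and with LPSx2 at 78.1 to 97.1. C57BL6/J animals 1 and 7 in media were the lowest, BTBR animal 8 in media was also below every LPS library, and the other 4 media libraries lay within the range of those with LPS. The means were 74.1 ± 22.3 (SD, n = 7), 89.2 ± 5.72 (n = 8) and 88.5 ± 6.98 (n = 7), and the differences of 15.9 ± 5.57 (SE) and 16.1 ± 5.72 did not pass (limma, adjusted p = 0.127 and 0.120). Without the lists that hold most peaks in duplicate, animal 7, at 36.3, was the only C57BL6/J media library, so that fit is not read here.

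Trim12c and Trim26 had like patterns. For Trim12c the mean percentile was 77.8 ± 7.69 in media, 86.6 ± 7.17 with LPSx1 and 88.9 ± 4.69 with LPSx2 (SD, n = 7, 8 and 7). The adjusted p were 0.195 and 0.105 (limma), and the groups overlapped. For Trim26 the media libraries of C57BL6/J animals 1 and 7 stood at 71.1 and 69.8, the other 5 at 92.6 to 97.6. In LPSx1 all 8 stood at 89.1 to 96.3, and the differences did not pass (adjusted p = 0.259 and 0.531, limma). Trim34a (chr7:104244457-104262234) had its 1 promoter peak in 20 of 22 libraries, and the 2 without it were again C57BL6/J animals 1 and 7 in media. In media its peak was present in all 4 BTBR libraries and 1 of 3 C57BL6/J libraries, and with LPS in all 15. The difference in response between strains did not pass (difference of -0.67, limma adjusted p = 0.727 for LPSx1). In these 2 libraries 52.1% and 65.1% of the peaks were promoter peaks, the second the highest share of any library, and its part in these ranks was not tested.

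**Figure D2:**
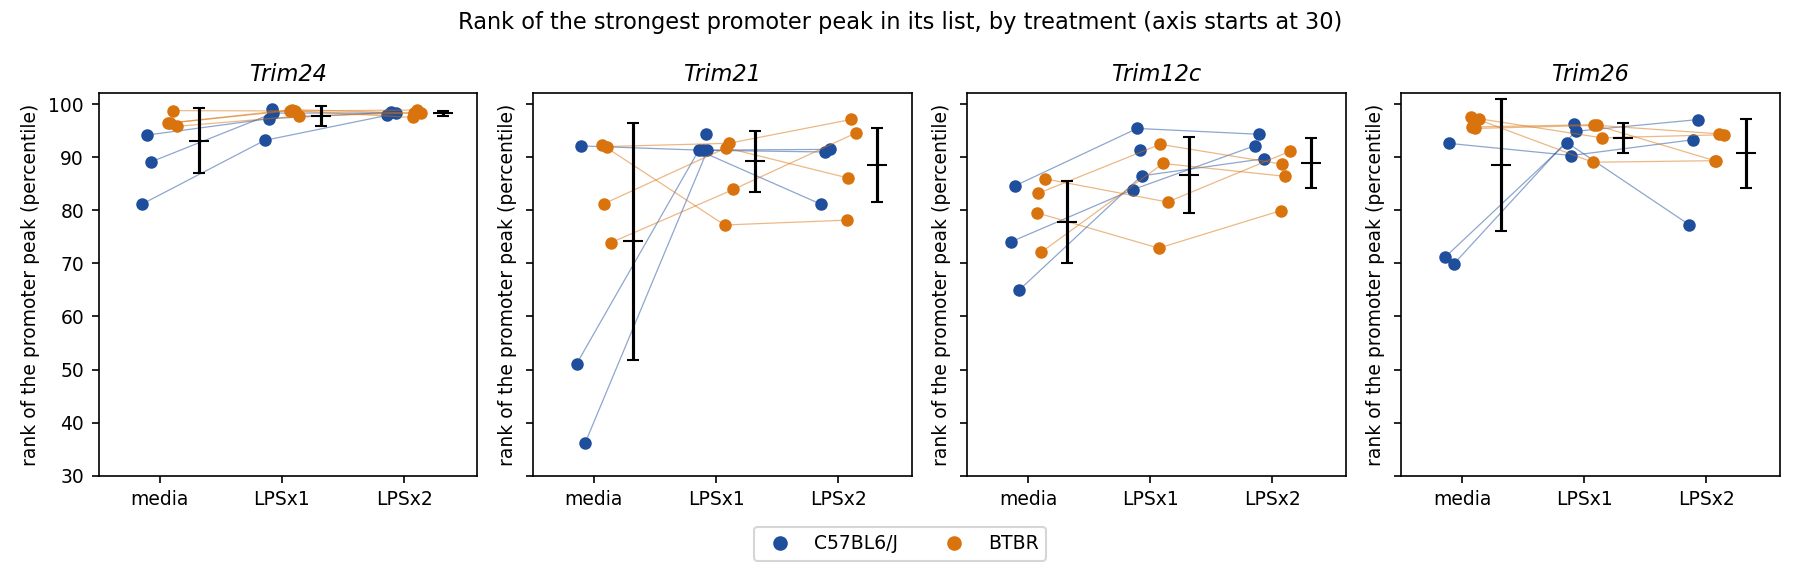
Percentile of the strongest promoter peak in its list for Trim24, Trim21, Trim12c and Trim26 (vertical axis, starting at 30) by treatment; points are libraries, lines join an animal, and black marks give the mean and SD over 7 media, 8 LPSx1 and 7 LPSx2 libraries. Trim24 rises from 93.1 to 97.8 and 98.2 on average, and the low media points of Trim21 and Trim26 are C57BL6/J animals 1 and 7.

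The Trim30 genes, of which Trim30a restrains signalling from Toll-like receptors, form the distal end of the chromosome 7 cluster. Trim30a (chr7:104409025-104465193) had the highest mean of the antiviral members. Its peaks numbered 2, 2 and 1 in the media libraries of C57BL6/J animals 1, 4 and 7 and 3, 2, 4 and 4 in those of BTBR animals 2, 3, 5 and 8. With LPSx1 they numbered 2, 4, 1 and 3 in C57BL6/J animals 1, 4, 6 and 7 and 3, 3, 3 and 4 in BTBR, and with LPSx2 2, 3 and 2 and 2, 3, 3 and 2. The ranges overlapped between treatments. Over the animals, means were 2.00 ± 0.816 in C57BL6/J and 3.00 ± 0.385 in BTBR (SD, n = 4 each), a difference of 0.86 ± 0.38 (SE) that did not pass (limma, adjusted p = 0.361). It turned to -0.11 when the stronger 50% of each list was used.

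The promoter peaks of Trim30a, Trim30b and Trim30d lay 123 to 129 bp upstream of the TSS in related sequence. Aligned over the peak, Trim30a and Trim30d were 92.1% identical, Trim30a and Trim30b 85.0%, and Trim30b and Trim30d 85.0%, so short reads may be shared between them and their separate values are uncertain. The Trim30a and Trim30d windows hold an ISRE, and the Trim30b window does not.
Trim30a, chr7:104465218-104465418: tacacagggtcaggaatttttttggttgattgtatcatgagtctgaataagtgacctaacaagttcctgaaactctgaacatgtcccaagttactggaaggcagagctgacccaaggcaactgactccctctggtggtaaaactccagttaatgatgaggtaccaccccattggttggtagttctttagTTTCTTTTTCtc
Trim30d, chr7:104507878-104508078: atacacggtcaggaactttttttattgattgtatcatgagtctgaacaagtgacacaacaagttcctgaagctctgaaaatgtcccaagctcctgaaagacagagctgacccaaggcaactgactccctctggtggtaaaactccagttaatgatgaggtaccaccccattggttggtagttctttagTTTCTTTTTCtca
Trim30b, chr7:104369889-104370089: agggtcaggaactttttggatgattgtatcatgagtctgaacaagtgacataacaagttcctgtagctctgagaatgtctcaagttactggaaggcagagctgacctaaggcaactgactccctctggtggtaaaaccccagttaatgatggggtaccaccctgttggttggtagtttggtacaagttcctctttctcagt
The Trim30a region was detected in 20 of 22 libraries and the Trim30b region in 18. A second Trim30b region 427 bp upstream was detected in 21. At Trim30c, a region 141 bp upstream was detected in 3 of 7 media, 7 of 8 LPSx1 and 7 of 7 LPSx2 libraries. An intronic Trim30a region 18694 bp inside the gene was detected in 3 of 7 media, 8 of 8 LPSx1 and 4 of 7 LPSx2 libraries. An intronic region of Trim30b 3246 bp from the TSS was seen in 0 of 7 media, 4 of 8 LPSx1 and 4 of 7 LPSx2 libraries. None of these was gained by the rule used here, which asks that 5 or more of 7 animals change one way and 0 the other. The rule called 0 Trim regions gained with LPSx1 and 0 with LPSx2, where 1.86% and 2.10% of all 44999 regions were gained. In the full lists the rule called 1 of 422 Trim regions gained with LPSx1 (Trim9), and 1729 of all 147816 regions. With LPSx2 it called 6 (Trim2, Trim3, Trim9, Trim30c, Trim52 and Trim72), and 1800 of all regions. In the stronger 50% of each list it called 1 of 73 with LPSx2 (Trim30c), and 447 of all 23658.

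Trim30d (chr7:104470014-104507849) differed in which region was open in which strain. Its promoter region was detected in 8 of 10 C57BL6/J libraries, 1 of 3 in media, 4 of 4 with LPSx1 and 3 of 3 with LPSx2, and in 0 of 12 BTBR libraries. A region was counted for 1 strain if all 4 of its animals, and none of the other strain, held it in most of their libraries. By that rule the Trim30d promoter was 1 of 2 Trim regions of C57BL6/J, where 0.313% of all regions were. No Trim region was counted for BTBR (0.164% of all regions). In the full lists the rule counted 1 region of Trim52 for C57BL6/J, with 96 of all 147816 regions. For BTBR it counted 1 of Trim30d, with 166 of all regions. The call at the Trim30d promoter was thus lost there. In the full lists of all 24 libraries the promoter region was found in 8 of 12 C57BL6/J and 2 of 12 BTBR libraries, both of BTBR animal 2. The 12 of C57BL6/J include the 2 short lists of animal 6 left out elsewhere, which held no Trim30d peak. A full list counted here only if a peak overlapped the highest-ranked 201 bp peak of the region. In the length-limited lists any peak of the region counted, so the 2 kinds of count are not the same measure. The other Trim30d region, 1943 bp inside the gene in an intron, went the other way. It was found in the full lists of 9 of 12 BTBR libraries, 1 of 4 in media and 4 of 4 with each LPS schedule, and of 0 of 12 C57BL6/J libraries. Of all regions 0.356% were in at least 9 of 12 BTBR and 0 of 12 C57BL6/J full lists, a count made after the values had been seen.
As a gene, Trim30d had 0 or 1 peak per library, with 0 in 6 of 7 media libraries and 1 in all 7 C57BL6/J libraries with LPS. Its peak number did not pass the test for LPSx1 (difference of 0.58 ± 0.21, limma adjusted p = 0.124) or for strain (difference of -0.44 ± 0.18, adjusted p = 0.313). The Trim30d mean was 0.143 for media, 0.75 for LPSx1 and 0.714 for LPSx2. BTBR animals also averaged under 0.5, at 0.333, against 0.833 for C57BL6/J animals. Only the LPS libraries thus took Trim30d to the mean of 0.5 needed for testing, so no conclusion is drawn from these fits. The reads were aligned to mm10, which is built from the C57BL/6J genome, and the part of sequence differences between the strains in these regions was not tested.

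Trim25 (chr11:88999376-89020293), the ligase that activates the RNA sensor RIG-I, had peaks in all libraries. In media they numbered 2, 5 and 2 in C57BL6/J animals 1, 4 and 7 and 2, 3, 2 and 2 in BTBR animals 2, 3, 5 and 8. With LPSx1 they numbered 3, 4, 2 and 2 in C57BL6/J animals 1, 4, 6 and 7 and 1, 4, 1 and 2 in BTBR, and with LPSx2 1, 3 and 2 and 1, 2, 2 and 2. C57BL6/J animal 4 in media was the highest, and the groups overlapped. The differences were -0.18 ± 0.34 (SE) with LPSx1 and -0.75 ± 0.35 with LPSx2, and neither passed (limma, adjusted p = 0.835 and 0.212). An intergenic region 25068 bp downstream of its TSS was detected in all 22 libraries, and the promoter region in 18. Of the 18 partner genes of nucleic acid sensing on a list chosen with it, such as Ddx58 (RIG-I), Mavs, Cgas and Sting1, 13 were tested and 0 passed in any comparison. Of all genes 5.40% passed with LPSx1, 6.11% with LPSx2 and 1.14% between strains, and a difference from these shares was not tested. The partner list had a median difference of 0.10 with LPSx1 and -0.04 with LPSx2.

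Among the 15 signalling ligases, 8 were tested and 0 rose or fell, where 5.40% of all genes changed with LPSx1 and 6.11% with LPSx2. Whether 0 of 8 differs from these shares was not tested. Trim8, which raises NF-kB activity (chr19:46501702-46516848), had the highest peak number of all members. In media it held 6, 5 and 5 peaks in C57BL6/J animals 1, 4 and 7 and 4, 8, 4 and 4 in BTBR animals 2, 3, 5 and 8. With LPSx1 it held 3, 5, 2 and 2 in C57BL6/J animals 1, 4, 6 and 7 and 3, 5, 2 and 2 in BTBR, and with LPSx2 3, 7 and 1 and 4, 6, 2 and 1. Within each LPS schedule the lane 2 animals 3 and 4, whose lists were the longest, were the highest, and the groups overlapped. The number was lower than in media in 6 of 7 animals with LPSx1 and in 5 of 7 with LPSx2. The differences of -1.99 ± 0.55 and -1.71 ± 0.56 (SE) missed the threshold (limma, adjusted p = 0.0510 and 0.0848). They were positive, at 1.95 and 2.33, in the full lists, where Trim8 reached 38 peaks. Its intronic region 9774 bp from the TSS was detected in 7 of 7 media, 3 of 8 LPSx1 and 4 of 7 LPSx2 libraries, and the region 1745 bp upstream in 7, 7 and 3. The promoter itself had a peak in 3 media libraries and in none with LPS. Trim27, a nuclear ligase of this group, held 2, 2 and 1 peaks in C57BL6/J and 0, 2, 1 and 1 in BTBR in media, 2, 2, 0 and 1 and 0, 3, 0 and 1 under LPSx1, and 0, 2 and 0 and 0, 2, 0 and 0 under LPSx2. Under LPSx2 animals 3 and 4 alone held peaks, the groups overlapped, and its LPSx2 difference from media of -0.75 ± 0.35 did not pass (limma, adjusted p = 0.202). Trim23 and Trim68 each held 1 peak in every library.

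Of the 4 TIF1 chromatin regulators 3 were tested, and Trim28 fell with both schedules. Trim28, also called KAP1, silences endogenous retroviruses together with zinc-finger proteins (chr7:12999114-13031035). It held 1, 3 and 3 peaks in the media libraries of C57BL6/J animals 1, 4 and 7 and 1, 3, 3 and 3 in those of BTBR animals 2, 3, 5 and 8. With LPSx1 it held 0, 2, 3 and 2 in C57BL6/J animals 1, 4, 6 and 7 and 0, 2, 2 and 2 in BTBR. With LPSx2 it held 0, 2 and 1 in C57BL6/J and 1, 2, 2 and 1 in BTBR. Animals 1 and 2 of lane 1 were low in every treatment and C57BL6/J animal 6 with LPSx1 was as high as the highest media libraries, so the groups overlapped. Within animals the number was lower than in media in 7 of 7 with LPSx1 and in 6 of 7 with LPSx2. The fall was -0.91 ± 0.22 (SE) with LPSx1 and -1.17 ± 0.23 with LPSx2 (limma, adjusted p = 0.0335 and 0.0104). With the animal as a block both still passed (adjusted p = 0.0370 and 0.0175, limma). Within lanes 1 and 2 the mean change per animal was -1 and -0.75, and within lanes 3 and 4 it was -1 and -1.67. All 3 regions of Trim28 lay within 1 kb of a TSS. The region 11 bp from the TSS was detected in 6 of 7 media, 5 of 8 LPSx1 and 2 of 7 LPSx2 libraries, the one 221 bp downstream in 5, 2 and 2, and the one 833 bp upstream in 6, 6 and 5. In the full lists the first was found in 7, 7 and 5 of 8 libraries each, the second in 4, 2 and 2 and the third in 6, 8 and 7. These counts ask for overlap with the highest-ranked peak of a region, so they can be lower than those of the length-limited lists. The media and LPSx2 libraries here include the short lists of animal 6, which held no Trim28 peak.

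Trim33, a cofactor of Smad signalling (chr3:103279293-103358775), had 2, 2 and 2 peaks in media in C57BL6/J and 1, 2, 3 and 1 in BTBR. With LPSx1 these were 1, 1, 1 and 2 and 1, 1, 2 and 2, and with LPSx2 1, 1 and 1 and 1, 1, 0 and 0. The LPSx2 libraries were the low ones, at or under 1, and media overlapped them only through BTBR animals 2 and 8. The difference with LPSx2 was -1.13 ± 0.33 (SE) and missed the threshold (limma, adjusted p = 0.0604). Its promoter region, 205 bp from a TSS, was detected in 5 of 7 media, 3 of 8 LPSx1 and 0 of 7 LPSx2 libraries. This was 1 of 2 Trim regions lost with LPSx2 by the rule, which 1.38% of all regions met. In the full lists the same region was found in 5 of 8 media, 7 of 8 LPSx1 and 4 of 8 LPSx2 libraries. The media and LPSx2 libraries here include the short lists of animal 6, of which the LPSx2 list alone held a Trim33 peak.

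Trim24, a coregulator of nuclear receptors (chr6:37870811-37966296), kept its peak number, 1 or 2 in every library, but its promoter peak rose in rank. In media it stood at percentile 81.2, 94.2 and 89.1 in C57BL6/J animals 1, 4 and 7 and at 96.4, 96.5, 98.8 and 95.8 in BTBR animals 2, 3, 5 and 8. With LPSx1 it stood at 93.2, 97.3, 99.2 and 98.3 in C57BL6/J animals 1, 4, 6 and 7 and at 98.8, 99.0, 98.7 and 97.7 in BTBR. With LPSx2 it stood at 97.9, 98.5 and 98.3 and at 97.5, 98.3, 98.9 and 98.4. The 3 C57BL6/J media libraries were the lowest in media. Media overlapped LPSx1 through all but C57BL6/J animals 1 and 7, and overlapped LPSx2 through BTBR animal 5 alone. The rise was 5.04 ± 1.17 points (SE) with LPSx1 and 5.73 ± 1.20 with LPSx2 (limma over 2548 genes, adjusted p = 0.0290 and 0.0140), where 0.824% and 0.667% of genes rose. Between strains 0 of the 9 members passed by rank, where 0.0392% of genes were higher in BTBR and 0.118% lower. With LPS 4 of the 9 with LPSx1 and 3 with LPSx2 had an unadjusted p under 0.05 (limma). How many of all 2548 genes did is not given here, so these counts are not read as a result on the members. Trim24 was the only one of the 9 to pass after adjustment. It did not pass without lane as covariate (limma, adjusted p = 0.122 and 0.0673), in lanes 1 and 2 alone (0.401 and 0.295), or without animal 5, 7 or 8 (0.0611 to 0.150 over both comparisons). With LPSx1 it was also lost without animal 3 or 6 (0.0994 and 0.0642).

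Of the 12 members grouped as cytoskeletal and muscle members 3 were tested, and 1 of them, Trim47, fell with both schedules. Trim47 (chr11:116105752-116127210) held 1, 1 and 2 peaks in media in C57BL6/J animals 1, 4 and 7 and 1, 1, 2 and 2 in BTBR animals 2, 3, 5 and 8. With LPSx1 it held 0, 1, 0 and 0 in C57BL6/J and 0, 1, 0 and 0 in BTBR, and with LPSx2 0, 0 and 0 and 1, 1, 0 and 0. Every media library held at least 1 peak and no LPS library more than 1, so the groups met only at 1. The fall was -1.15 ± 0.28 (SE) with LPSx1 and -1.17 ± 0.28 with LPSx2 (limma, adjusted p = 0.0306 and 0.0299), lower in 5 of 7 animals in each and higher in none. Trim47 averaged 1.43 peaks in media and 0.25 and 0.286 with LPSx1 and LPSx2, so it reached the mean of 0.5 needed for testing only through the media libraries. With the animal as a block it passed in neither (adjusted p = 0.0824 and 0.0584, limma). The region behind it lay 506 bp upstream of a TSS, in an intron of a longer Trim47 transcript, and was detected in 7 of 7 media, 2 of 8 LPSx1 and 2 of 7 LPSx2 libraries. It was the only Trim region lost with LPSx1, where 1.17% of all regions were lost, and it was lost with LPSx2 too.
Trim47, chr11:116110652-116110852: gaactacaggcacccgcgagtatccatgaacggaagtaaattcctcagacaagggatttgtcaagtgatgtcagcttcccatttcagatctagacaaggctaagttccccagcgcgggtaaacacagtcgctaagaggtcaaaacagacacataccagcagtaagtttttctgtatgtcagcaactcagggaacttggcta
In the full lists the same region was found in 7 of 8 media, 5 of 8 LPSx1 and 3 of 8 LPSx2 libraries. The media and LPSx2 libraries here include the short lists of animal 6, which held no Trim47 peak. A second Trim47 region 67 bp from the TSS was detected in 3 media libraries and in none with LPS. Trim36, a microtubule-associated ligase, had the highest mean of the group. In media it held 2, 2 and 2 peaks in C57BL6/J and 2, 3, 2 and 2 in BTBR, under LPSx1 1, 2, 2 and 2 in each strain, and under LPSx2 1, 3 and 2 and 1, 2, 3 and 2. The groups overlapped, and neither difference from media passed (limma, adjusted p = 0.306 and 0.809).

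The members with NHL repeats, Trim2, Trim3, Trim32 and Trim71, gave 3 tested genes and no call, where 5.40% (LPSx1) and 6.11% (LPSx2) of all genes changed. Trim3, a ligase known from neurons, held 0, 2 and 1 peaks in C57BL6/J and 1, 2, 2 and 2 in BTBR in media. Under LPSx1 it held 0, 2, 3 and 3 and 1, 3, 2 and 2, and under LPSx2 1, 3 and 3 and 0, 2, 3 and 2. The groups overlapped, and its differences of 0.52 ± 0.28 and 0.67 ± 0.28 (SE) did not pass (limma, adjusted p = 0.295 and 0.167). Trim71, which silences mRNA in stem cells, had a single region 28096 bp upstream of its TSS, inside an intron of Cnot10. It was detected in 2 of 7 media, 7 of 8 LPSx1 and 5 of 7 LPSx2 libraries, and the difference of 0.60 ± 0.19 with LPSx1 did not pass (limma, adjusted p = 0.0784). The Trim71 mean was 0.286 for media, 0.875 for LPSx1 and 0.714 for LPSx2. It too reached the mean of 0.5 needed for testing only through the LPS libraries, so no conclusion is drawn from that fit.

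The other members included 2 that passed a test, Trim17 and Trim52. Trim17, a ligase known for its part in neuronal cell death (chr11:58954685-58973098), held 2, 4 and 3 peaks in media in C57BL6/J animals 1, 4 and 7 and 0, 3, 2 and 1 in BTBR animals 2, 3, 5 and 8. With LPSx1 it held 0, 2, 0 and 1 in C57BL6/J animals 1, 4, 6 and 7 and 0, 1, 1 and 0 in BTBR. With LPSx2 it held 0, 3 and 0 and 0, 3, 0 and 0, so only the lane 2 animals 3 and 4 kept peaks, and the groups overlapped. The fall was -1.60 ± 0.33 (SE) with LPSx1 and -1.38 ± 0.34 with LPSx2 (limma, adjusted p = 0.0147 and 0.0309), lower in 6 and 5 of 7 animals and higher in none. With the animal as a block it passed with LPSx1 and not with LPSx2 (adjusted p = 0.0455 and 0.0515, limma). Its promoter region 129 bp upstream of the TSS was detected in 6 of 7 media, 2 of 8 LPSx1 and 2 of 7 LPSx2 libraries. Its part outside exons is shown for its loss of detection and holds no ISRE.
Trim17, chr11:58954513-58954656: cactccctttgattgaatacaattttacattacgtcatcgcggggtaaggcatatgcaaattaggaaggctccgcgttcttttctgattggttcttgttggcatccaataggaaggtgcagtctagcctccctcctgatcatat
In the full lists this region was found in 7 of 8 media, 7 of 8 LPSx1 and 5 of 8 LPSx2 libraries. The media and LPSx2 libraries here include the short lists of animal 6, which held no Trim17 peak. With promoter peaks left out the difference of Trim17 was -0.80 and -0.75 and passed (limma, adjusted p = 0.00841 and 0.0137). Its regions outside promoters lay 4500 and 3691 bp upstream and 1460 bp downstream of a TSS. They were detected in 2, 4 and 2 media, 1, 2 and 0 LPSx1 and 1, 2 and 0 LPSx2 libraries. Without promoter peaks Trim17 thus reached the mean needed for testing only through the media libraries, so no conclusion is drawn from that fit.

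**Figure D3:**
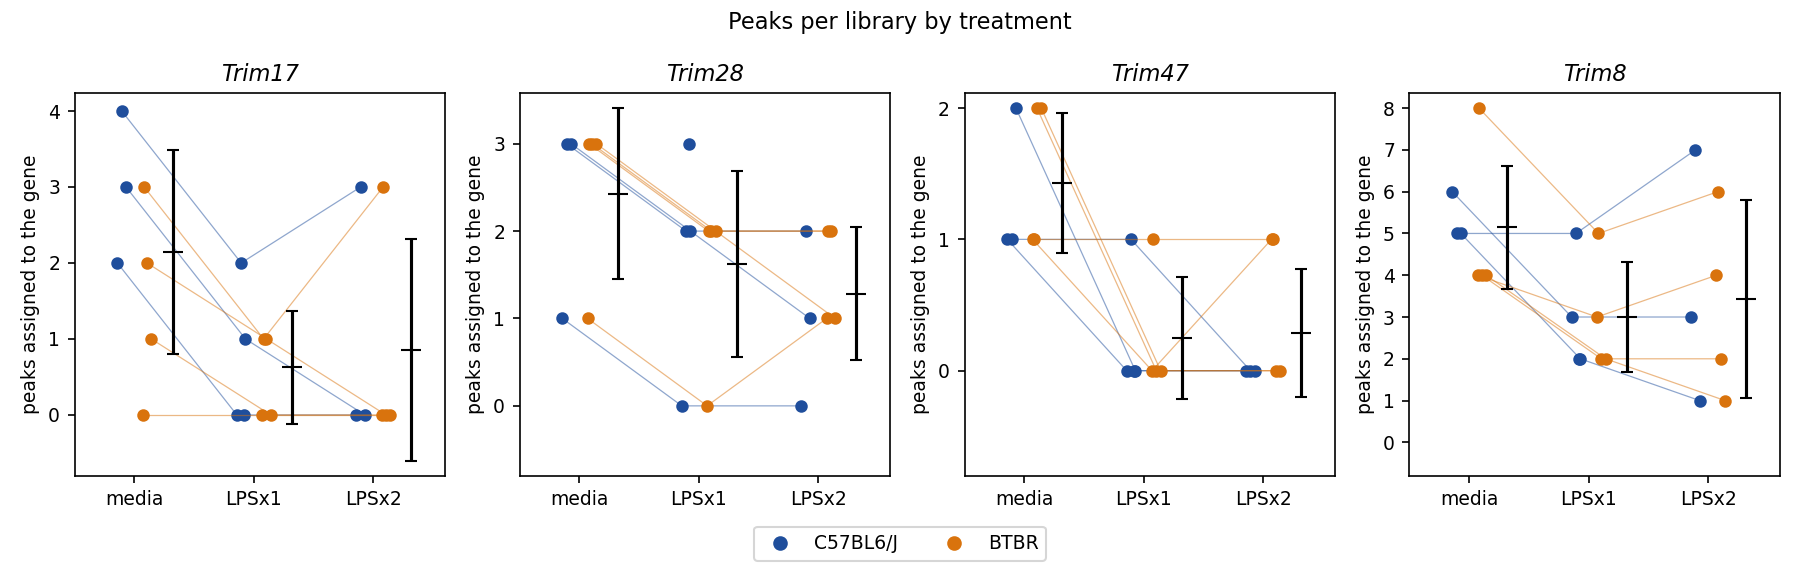
Number of peaks assigned to Trim17, Trim28, Trim47 and Trim8 (vertical axes) by treatment; points are libraries, lines join the libraries of an animal, and black marks give the mean and SD over 7 media, 8 LPSx1 and 7 LPSx2 libraries. Trim47 drops from 1 or 2 peaks in media to 0 or 1 with LPS, and Trim17, Trim28 and Trim8 lie lower with LPS with overlapping groups.

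The calls for Trim17, Trim28 and Trim47 rest on lists of equal length within a lane. In the full lists, and in lists made equal only within an animal, 0 members passed in either comparison. Promoter peaks made up 38.7% to 65.1% of the media lists, 33.6% to 51.8% of the LPSx1 lists and 32.5% to 45.5% of the LPSx2 lists, and the part of this in the falls of Trim28 and Trim47, whose peaks are all within 1 kb of a TSS, was not tested. Without lane as covariate only Trim47 passed, without the 7 lists that hold duplicates none of the 3 did, and within lanes 1 and 2 alone 0 members did. With LPSx1, Trim17 was lost without animal 1 or 8 (limma, adjusted p = 0.0624 and 0.0599), Trim28 without animal 1, 3, 4, 5, 7 or 8 (0.0564 to 0.121) and Trim47 without animal 1, 2, 5, 6, 7 or 8 (0.0524 to 0.144). With LPSx2, Trim28 was lost without animal 4 or 7 (0.0532 and 0.0791), Trim17 without animal 1, 4, 5, 7 or 8 (0.0648 to 0.128) and Trim47 without the same 5 (0.0747 to 0.122).

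Trim52, a member with a RING finger and B-box (chr14:106106198-106135859), was the only Trim gene that differed between the strains, where 1.14% of all genes did, 0.647% lower in BTBR and 0.493% higher. In C57BL6/J animals 1, 4 and 7 it held 2, 4 and 1 peaks in media, in animals 1, 4, 6 and 7 it held 5, 5, 5 and 4 with LPSx1, and in animals 1, 4 and 7 it held 5, 7 and 3 with LPSx2. In BTBR animals 2, 3, 5 and 8 it held 0, 0, 1 and 1 in media, 0, 0, 1 and 2 with LPSx1 and 0, 1, 2 and 3 with LPSx2. The strains met only at 1 in media and at 3 with LPSx2, and did not overlap with LPSx1. Over animals the mean was 4.25 ± 1.20 in C57BL6/J and 0.917 ± 0.918 in BTBR (SD, n = 4 each), a difference of -3.19 ± 0.53 (SE) in the fit (limma, adjusted p = 0.00793). The random animal effect of that fit had a consensus correlation of -0.00410, so libraries of an animal counted nearly as independent. The SE may thus be too small for a comparison of 4 animals with 4. Between treatments the differences of 1.27 ± 0.63 with LPSx1 and 1.83 ± 0.64 with LPSx2 did not pass (limma, adjusted p = 0.260 and 0.102). With the animal as a block the LPSx2 difference passed (adjusted p = 0.0148, limma), and the number was then higher than in media in 6 of 7 animals.

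No library had a peak at the Trim52 promoter. Its peaks lay in 7 intergenic regions 43495 to 93957 bp from the TSS, so they are assigned to Trim52 by distance alone, and with peaks limited to 25 kb the gene was not tested. The region 93957 bp upstream was detected in 10 of 10 C57BL6/J libraries and in 2 of 12 BTBR libraries, both of animal 8. The region 70749 bp upstream was detected in 7 of 10 C57BL6/J and 0 of 12 BTBR libraries. The region 61642 bp upstream, the second region counted for C57BL6/J by the rule, was detected in 8 of 10 and in 2 of 12. One region, 49168 bp downstream, was shared, with 8 of 10 and 7 of 12, and the one 87278 bp downstream was seen in 6 of 10 and 0 of 12. The sequences of the regions 70749 and 61642 bp upstream are shown because their detection separates the strains. A C/EBP match, TTGCNNAA, is in capitals in the latter, and 15.5% of all regions over 1 kb from a TSS hold such a match.
Trim52 70749 bp upstream, chr14:106035349-106035549: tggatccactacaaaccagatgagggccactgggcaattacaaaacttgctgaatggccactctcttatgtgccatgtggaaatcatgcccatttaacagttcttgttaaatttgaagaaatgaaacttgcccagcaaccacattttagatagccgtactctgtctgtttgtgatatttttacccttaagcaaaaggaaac
Trim52 61642 bp upstream, chr14:106044456-106044656: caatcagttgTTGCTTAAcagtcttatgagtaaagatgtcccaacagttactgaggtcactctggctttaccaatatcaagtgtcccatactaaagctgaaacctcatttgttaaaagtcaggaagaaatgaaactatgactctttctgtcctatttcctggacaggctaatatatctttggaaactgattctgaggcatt
In the full lists the region 93957 bp upstream was found in 10 of 12 C57BL6/J and 4 of 12 BTBR libraries, the one 70749 bp upstream in 9 and 0, and the one 61642 bp upstream in 8 and 5. BTBR animal 2, whose full lists held 63125 to 127242 peaks, had no peak at the one 70749 bp upstream. Of all regions 0.0689% were in at least 9 of 12 C57BL6/J and 0 of 12 BTBR full lists. The 12 C57BL6/J full lists include the 2 short lists of animal 6, which held no Trim52 peak.

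**Figure D4:**
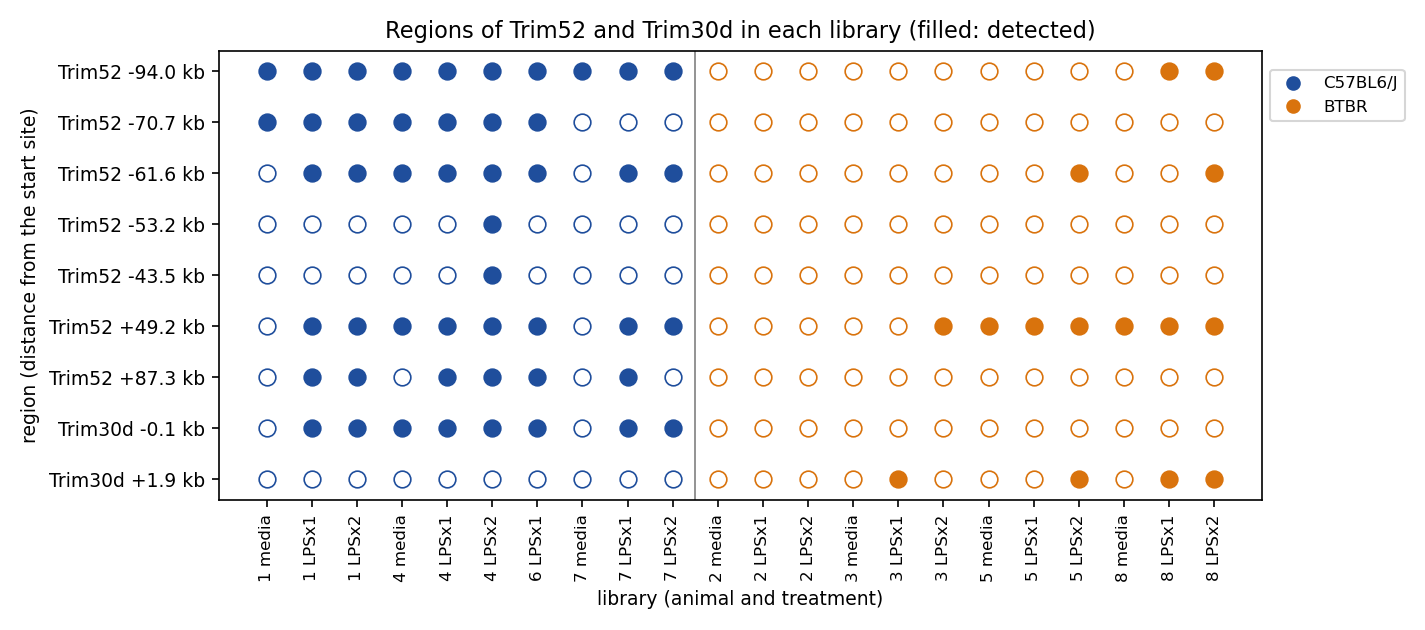
Detection of the Trim52 and Trim30d regions (rows, with the distance from the nearest start site in kb) in the 22 length-limited lists (columns, by strain, animal and treatment); filled circles are detected. The 3 most upstream Trim52 regions and the Trim30d promoter are mostly filled in C57BL6/J and empty in BTBR, and the intronic Trim30d region is filled in 4 BTBR libraries alone.

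In lane 4 Trim52 held 1, 4 and 3 peaks in C57BL6/J animal 7 and 1, 2 and 3 in BTBR animal 8 (media, LPSx1 and LPSx2). In lane 3 it held 5 in C57BL6/J animal 6 with LPSx1, and 1 in BTBR animal 5. The Trim52 strain difference was larger with lanes 1 and 2 alone (-4.50, limma, adjusted p = 0.00493) than over all lanes (-3.19). It did not pass without animal 1, 2, 3 or 4 (differences of -2.88, -2.86, -2.44 and -2.36, adjusted p = 0.0648 to 0.102), or in the full lists (-2.94, adjusted p = 0.768), and was -1.09 (adjusted p = 0.312) without the lists that hold duplicates. Of the other 33 tested members none passed between strains, and 6 in all had an unadjusted p under 0.05 (limma), as had 1156 of all 9122 genes. The response to LPS differed between strains in 0 members for LPSx1 and 0 for LPSx2. Of all genes 0.0329% and 0.0110% passed the interaction test (limma), 0.0219% and 0.0110% in the positive direction. At an unadjusted p under 0.05 (limma) were 1 and 3 members, and 518 and 585 of all 9122 genes. In media Trim genes took 0.359% ± 0.0315 of the gene-assigned peaks, against 0.351% ± 0.0448 under LPSx1 and 0.337% ± 0.0329 under LPSx2 (SD, n = 7, 8 and 7). Over animals they took 0.362% ± 0.0294 in C57BL6/J and 0.333% ± 0.0107 in BTBR (SD, n = 4 each), and the ranges overlapped in both cases. In the stronger 50% of each list the strains did not overlap, with 0.384% to 0.411% in C57BL6/J and 0.329% to 0.348% in BTBR animals.

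Trim43a and Trim43c, related genes on chromosome 9 that are known from early embryos, each had exactly 1 peak in all 22 libraries, 18715 and 19696 bp downstream of the TSS in intergenic sequence, and no promoter peak in any. These peaks are assigned by distance alone, and since the genes are related copies, reads may be shared between them and their separate values are uncertain. Over all 132 Trim regions 12 were detected in every library (9.09%, against 6.68% of all regions) and 32 in a single library (24.2%, against 24.6%). AP-1 sites, TGACTCA or TGAGTCA, lay in 12.9% of the Trim regions and 15.8% of all regions. For PU.1 sites (GAGGAAGT) these shares were 4.55% and 8.69%, for C/EBP sites 14.4% and 12.5%, and for NF-kB sites 4.55% and 4.10%.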

How the data were processed

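ATAC-seq peak lists of 24 libraries from 8 animals were used. The deposited files hold, per library, 201 bp peaks with a score in steps of 0.5, at least 7, whose scale is not given in the sources used here. Per the submitters' processing notes, the authors used the mm10 build, Trimmomatic 0.38, SAMtools 1.8, Picard 2.18.4, HOMER and bedtools, and the aligner is not given in the sources used here. Depth in reads is unknown, and lists held 299 to 127291 peaks.

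In 7 lists 66.7% to 87.4% of peaks overlapped another (at most 0.213% in the other 17), so overlapping peaks were merged to the highest score. Lists under 5000 merged peaks (2) were left out. The others were limited within a lane to 11349, 22037, 16045 and 13957 peaks and assigned to the nearest TSS of GENCODE M21 protein-coding transcripts within 100 kb. Genes that averaged 0.5 or more peaks per library entered limma 3.58.1 (R 4.3.3; trend and robust fits; 6 strain and treatment groups plus lane; Benjamini-Hochberg adjustment over 9122 genes, threshold 0.05). Strains were compared with the animal as a random effect (consensus correlation -0.00410), which left the libraries nearly independent in that fit. Treatments share animals: deviations of same-animal libraries correlated at 0.195 to 0.800 (median 0.510, 21 pairs), those of other pairs at -0.579 to 0.523 (median -0.241, 60 pairs). Regions are overlapping peaks of the 22 kept lists. A length-limited list held a region if any of its peaks belonged to it. Counts of full lists that held a region cover all 24 libraries, the 2 short ones included. They ask for overlap with the highest-ranked peak of the region. Promoter ranks and the full-list counts were added after seeing the data. The code was tested on simulated data.

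Values in every library are given for members that passed a test, the 3 largest differences per comparison, the highest member of each role, and Trim14, Trim21, Trim25, Trim30a and Trim56, and others outside that rule were chosen after their values were seen. The members and lists were chosen with earlier results of these data known. Sequences are from GRCm38.p6 (mm10). A marker gene and a pair of region sequences are not reported here.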

Additional observations from a re-analysis of the deposited data

Results flagged for a closer look

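Groups examined numbered 69, each the 7 or 8 libraries of a treatment for the peak number or promoter rank of a member. In these, 11 values stood apart from the rest of their group. The rule used picks about 1 in 20 groups by chance if values are continuous and normally distributed. That rate need not hold for small counts or for percentiles, which have an upper limit. Where all other libraries held the same number of peaks, any differing count stood apart. Whether 11 is more than chance gives was thus not tested. Of the peak numbers, Trim14 was 2 in BTBR media animal 3 and 0 in the other 6 media libraries. Trim36 was 3 in the same library and 2 in the other media libraries. Trim56 was 1 in BTBR LPSx1 animal 8 and 1 in BTBR LPSx2 animal 3, and 0 in the other libraries of each treatment. Trim25 was 5 in C57BL6/J media animal 4 and 2 or 3 elsewhere in media.

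Of the promoter percentiles, Trim24 stood at 93.2 in C57BL6/J LPSx1 animal 1 and at 97.3 to 99.2 in the other LPSx1 libraries. Trim68 stood at 18.8 in the same library, against 60.4 to 93.6, and at 32.1 in C57BL6/J media animal 7, against 67.9 to 92.9. Trim23 stood at 59.5 in C57BL6/J media animal 7, against 80.2 to 90.6, and at 55.9 in BTBR LPSx2 animal 2, against 78.5 to 92.2. Trim26 stood at 77.3 in C57BL6/J LPSx2 animal 1, against 89.2 to 97.1.

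The 2 lists left out for their length held Trim peaks too. Animal 6 in media held 1 Trim peak, at Trim50, of 273 assigned to genes. Animal 6 in LPSx2 held 8 of 1758, at Trim3, Trim21, Trim24, Trim26, Trim32, Trim33, Trim45 and Trim50.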

How the results depend on the processing

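Over 18 results on named members and 314 alternatives, 222 kept direction and side of the threshold, 79 lost the call, 9 gained one and 4 reversed. The reversals were Trim8 in the full lists (1.95 with LPSx1, 2.33 with LPSx2), Trim25 between LPS schedules without the lists that hold duplicates (0.12) and Trim30a between strains in the stronger 50% of peaks (-0.11). The cause was not tested for these or for the counts that follow.

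The 3 calls with LPSx1 became 0 in full lists, 0 with lists equal within an animal and 0 in lanes 1 and 2. They became 1 (Trim8) in the stronger 50%, 1 (Trim47) without lane, and 0 to 4 without 1 animal. The 3 with LPSx2 became 0, 0, 0, 2 and 1 under the same settings, and 1 to 4 without 1 animal. The strain call became 0 in full lists, 0 with lists equal within an animal and 0 within 25 kb, and 0 to 1 without 1 animal. For the interactions, counts were 0 to 2 without 1 animal. Without duplicate-holding lists, animal 7 was the only C57BL6/J library left in media and in LPSx2. Its media list lacks the Trim34a peak, so what newly passed in that setting is not given. Rank calls (1 each) became 0 without lane and 0 in lanes 1 and 2, and 0 to 3 (LPSx1) and 0 to 2 (LPSx2) without 1 animal. The 1 region lost with LPSx1 (Trim47) became 1 gained (Trim9) in full lists, 1 lost at Trim8 in the stronger 50%, 2 when peaks had to overlap over most of their length and 2 without duplicate-holding lists (0 to 1 without 1 animal). The 2 lost with LPSx2 gave way to 0 lost and 6 gained in full lists, to 0 lost and 1 gained in the stronger 50%, and to 0 without duplicate-holding lists (0 to 2). The 2 strain regions of C57BL6/J became 1 in the stronger 50% (2 to 4 without 1 animal), and in full lists 1 of C57BL6/J and 1 of BTBR. Of all 147816 regions in full lists, 1729 were gained with LPSx1 and 1800 with LPSx2, and 124 and 203 were lost. Of all 23658 in the stronger 50%, 365 and 447 were gained and 239 and 283 lost. By strain, C57BL6/J had 96 in full lists and 83 in the stronger 50%, and BTBR 166 and 33. Shares moved to 0.393% in media and 0.369% in BTBR within 25 kb, and to 0.395% in C57BL6/J in the stronger 50%, where BTBR had 0.340% and the strains did not overlap.

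With the animal as a replicate block, 2 members passed with LPSx1 (Trim17 and Trim28), 2 with LPSx2 (Trim28 and Trim52), 0 between LPS schedules and 0 interactions, and Trim24 kept its rank calls. A strain difference could not be fitted with that block, since each animal has 1 strain.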
